A study of Mus musculus with 16 samples.

Results

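The proteasome genes described here were the 42 mouse genes whose symbols begin with Psma, Psmb, Psmc, Psmd, Psme or Psmf and that had 10 or more counted read pairs in at least 4 of 16 cortex libraries. They were taken from 47593 genes in the count table. Of 50 symbols with these beginnings, 44 remained once Psmb8, Psmb9 and the names holding -ps (pseudogenes) were set aside, and 42 of the 44 reached the count minimum. No difference between groups entered this choice. Psme2b, with 2 to 19 read pairs per library and 10 or more in 4 libraries, was just inside the minimum. Psma8, with 0 to 15 read pairs and 10 or more in 3 libraries, and Psmb11, with 1 to 12 read pairs and 10 or more in 2, were just outside. Psma8 is the alpha subunit of testis and Psmb11 the catalytic subunit of the thymus cortex. The symbols also took in 2 genes of another kind: Psmc3ip encodes a partner of the meiotic recombinases and is no proteasome subunit, and Psme2b is an intronless near-copy of Psme2.

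RNA was sequenced from the cortex of heterozygous 5xFAD mice, which carry human transgenes with familial Alzheimer's disease mutations under the neuronal Thy-1 promoter and develop amyloid plaques early. Both diets were given from 2 months of age until the cortex was taken at 5 months. The rapamycin diet held encapsulated rapamycin, an inhibitor of the mTOR kinase, and the vehicle (control) diet held the carrier alone. There were 4 libraries in each group, called FC (female, vehicle), FR (female, rapamycin), MC (male, vehicle) and MR (male, rapamycin), and the FR libraries are numbered 1, 2, 4 and 5. All 16 came from transgenic mice, so no group without the transgenes was compared. The labels give a batch for each library: FC4, FR4, FR5, MC4 and MR4 were batch 2, and the other 11 were batch 1.

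The proteasome is the barrel-shaped protease that destroys proteins tagged with ubiquitin, and with autophagy it forms the main route of protein disposal in neurons. Its core particle, the 20S proteasome, is a stack of rings: the outer rings of alpha subunits gate the entrance and the inner rings of beta subunits hold the catalytic sites. The 19S regulatory particle caps the core. Its base has a ring of ATPases that unfold the substrate, and its lid removes the ubiquitin chain. Other caps (Psme1 to Psme4) open the core without ubiquitin, and the transcription factor Nfe2l1 is known to raise subunit genes together when proteasome activity falls.

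All 42 genes were among the 16553 tested, and by role they comprised 7 alpha ring genes, 7 beta ring genes, the inducible catalytic subunit Psmb10, 6 base ATPases, 3 other base subunits, 8 lid subunits, 3 chaperones of 19S assembly, 5 caps and inhibitors, and the 2 genes of another kind. The libraries held 16393501 to 20593089 counted read pairs. The 8 libraries labelled female had 8678 to 23541 read pairs on Xist, the RNA that silences an X chromosome in females, and at most 8 on Y-linked genes. The library labelled MR4 resembled them, with 9935 on Xist and 0 on Y-linked genes. In the other 7 libraries labelled male, Xist had at most 17 and the Y-linked genes 1915 to 2231. MR4 was kept under its label. Summed markers of choroid plexus reached 2050 CPM (counts scaled by library size) in MC4 and at most 341 CPM in batch 1. They moved in both the diet and the batch comparison: of the 12 markers, 6 passed as lower and 0 as higher with rapamycin (median log2 fold change -1.83), and 7 passed as higher and 0 as lower in batch 2. Their sum was 15.99 to 2050 CPM in vehicle and 26.0 to 197 CPM in rapamycin libraries, and their part in the results was not tested. All 8 cortical excitatory neuron markers were detected in every library. Of these 8, 2 passed as higher and 0 as lower in batch 2, and 1 passed as lower with rapamycin. Of 5 thalamus markers tested, 3 passed as higher in batch 2. Over all genes 19.1% passed as higher in batch 2 and 6.86% as lower with rapamycin. Summed oligodendrocyte markers reached 5911 CPM in vehicle and 9465 CPM in rapamycin libraries, and 0 of 6 passed between the diets. In bulk tissue, fewer cells of a type and less RNA per cell cannot be told apart.

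The Nfe2l1 binding sequence (the antioxidant response element, searched as TGACNNNGC on both strands) is the best-known element of proteasome promoters, so the promoters that hold it are shown for the catalytic genes Psmb5 and Psmb6 and for Psmd9, a gene that rose with rapamycin. Promoter sequences are from RefSeq (GRCm38.p6) and were found for 36 of the 42 genes, in 39 windows that run from 250 bases before to 50 bases after a start site. The stretches below lie upstream of the start site, 5′ to 3′ on the gene's own strand, with the match in capitals. They are at chr14:54618014-54618062 (minus strand) for Psmb5, chr11:70525328-70525356 (plus strand) for Psmb6 and chr5:123228139-123228187 (plus strand) for Psmd9.
Psmb5: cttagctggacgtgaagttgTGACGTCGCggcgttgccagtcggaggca
Psmb6: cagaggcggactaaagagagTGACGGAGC
Psmd9: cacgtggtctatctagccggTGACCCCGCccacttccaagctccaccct
The matches begin 47, 9 and 31 bases before the RefSeq start site. The letters occurred in 6 of the 39 windows of these genes (15.4%) and in 12.4% of all 32851 promoter windows. The windows not shown were those of Psmc6, Psmd12 and Psme4, which did not pass between the diets. Of the genes shown, Psmb6 and Psmd9 passed as higher and Psmb5 did not pass. The letters were absent from the windows of Psma3, Psma7, Psmb3, Psmb10, Psmc5, Psmd4 and Psme1, which passed as higher. The GC box (GGGCGG) was in 56.4% of the genes' windows against 35.7% of all windows, the Ets core (GGAAG) in 87.2% against 71.4%, and the CCAAT box in 33.3% against 37.4%. The Nrf1 core GCATGCGC was in 5.13% against 2.71%, the E-box CACGTG in 10.3% against 7.15%, and the TATA sequence TATAAA in 7.69% against 13.6%. A match is a description of the letters and not a measured binding site.

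In vehicle-fed cortex the core and base genes had the highest levels per length. Levels between genes are given as CPM per kilobase, with the length of the principal transcript or the counted exons, whichever is smaller, and as the mean ± SD of 8 vehicle libraries. The highest was Psmc5, a base ATPase, at 118 ± 12.7 CPM per kilobase, followed by the beta ring genes Psmb4 at 109 ± 18.8 and Psmb1 at 103 ± 21.6. Neighbours in the order of these 3 genes differed by less than their SDs. The 7 alpha ring genes ranged from 28.6 CPM per kilobase (Psma3) to 78.5 (Psma7), the 7 beta ring genes from 42.2 (Psmb2) to 109 (Psmb4) and the 6 base ATPases from 45.3 (Psmc6) to 118 (Psmc5). The lid genes ranged from 19.8 CPM per kilobase (Psmd11) to 61.6 (Psmd7). The inducible subunit Psmb10 was at 32.1 ± 5.52 CPM per kilobase, below the subunit whose place it takes, Psmb7, at 60.05 ± 12.5. Such orders depend on the length used. With the counted exon length alone Psmb4 was at 66.4 CPM per kilobase, and Psmb10 at 32.1 lay above Psmb7 at 20.4. The 3 assembly chaperones were lower, at 10.04 CPM per kilobase for Psmd9, 10.3 for Psmd10 and 12.1 for Psmd5. Among the caps, Psme3 (nuclear activator PA28 gamma) was highest at 39.3 ± 2.07 CPM per kilobase, with Psme1 at 27.03 ± 5.03, Psme2 at 20.5 ± 3.74 and Psme4 (activator PA200) at 7.36 ± 1.15. Psmc3ip and Psme2b were at 1.305 and 0.605 CPM per kilobase, far below every subunit gene.

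**Figure D1:**
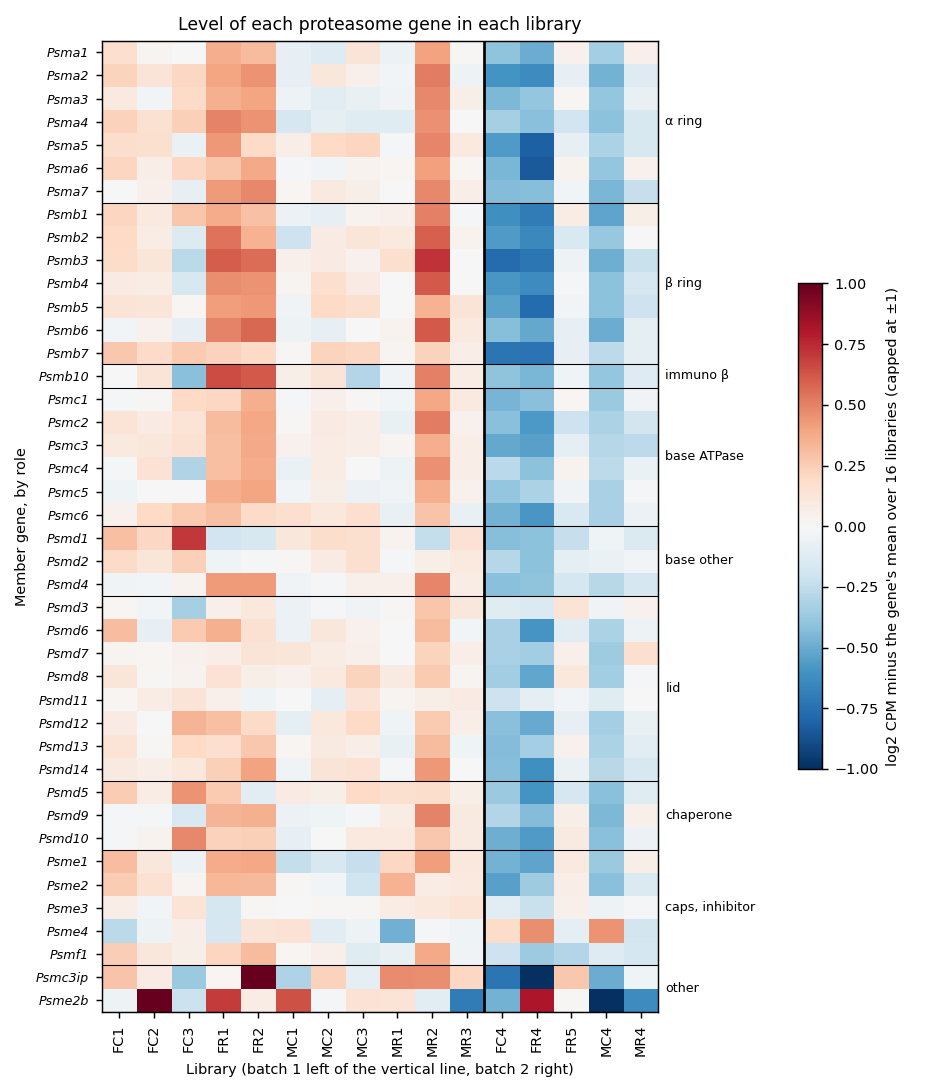
Each cell is a gene's log2 CPM in 1 library minus its mean over all 16 libraries, with genes in rows by role, batch 1 libraries left of the line and batch 2 right. FR1, FR2 and MR2 were above the mean for most genes, and FC4, FR4 and MC4 were below it. Psme4 was above its mean in FC4, FR4 and MC4, and Psmd1 was below its mean in FR1, FR2 and MR2 too.

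The libraries differed from each other in nearly all subunit genes at once. The summed level of the 42 genes was 3509, 3411, 3507 and 2471 CPM in FC1 to FC4, 3918, 3962, 2374 and 3167 CPM in FR1, FR2, FR4 and FR5, 3247, 3382, 3393 and 2674 CPM in MC1 to MC4, and 3261, 4161, 3379 and 3091 CPM in MR1 to MR4. The 3 highest sums were those of MR2, FR2 and FR1, all from rapamycin-fed mice of batch 1, and the 3 lowest those of FR4, FC4 and MC4, all of batch 2. MR2 was the highest library for 23 of the 42 genes and FR4 the lowest for 27. For 22 genes FR1, FR2 and MR2 were the 3 highest of batch 1. The other rapamycin libraries of batch 1, MR1 and MR3, lay among the vehicle libraries. In batch 2 the sums of FR5 and MR4 lay above those of the vehicle libraries FC4 and MC4, and that of FR4 below them. Against the vehicle mean of batch 2, the median log2 difference of the 42 genes was 0.37 in FR5, 0.30 in MR4 and -0.12 in FR4. Against that of batch 1 it was 0.24 in FR1, 0.30 in FR2, 0.35 in MR2, -0.051 in MR1 and -0.016 in MR3.

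With both sexes in the fit, 9 proteasome genes were higher in rapamycin-fed cortex and 33 did not pass. Of the 42 genes, 38 had a log2 fold change above 0 (52.3% of all genes tested did), 9 passed as higher at an adjusted p under 0.05 and 0 passed as lower. Over all genes 13.3% passed, 6.46% as higher and 6.86% as lower, and the 9 of 42 are 21.4%. The median log2 fold change was 0.16, against 0.015 for all genes tested. With the exon length slope of each library (the relation of read share to gene length, described later) as a covariate, the median was -0.072 and 8 of 42 were above 0. No member reached a 1.5-fold change together with the adjusted p, as 2.26% of all genes did, and 20 of the 42 had an unadjusted p under 0.05 (30.4% of all genes did). The test was the quasi-likelihood test of edgeR, in a model of sex, batch and treatment. Where nothing in the labels says that samples are separate animals, a p value measures only the spread between the samples. The count changed with every library left out: fewer than 9 passed in 13 of the 16 fits that left out 1 library, with 0 without FR1 or FR2 and 1 to 3 in the other 11. It was 11, 12 and 19 in the fits without MR1, MR3 and FR4. Of all genes 4.26% to 20% passed in these 16 fits. Without FR1, FR2 and MR2 together 0 of the 42 passed, as did 0.0058% of all genes, and the median was 0.067.

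The beta ring genes had the highest median of the roles with several genes, at 0.27 on the log2 scale, with all 7 above 0 and 2 passed as higher. The catalytic subunit Psmb6 (chromosome 11, 70525367 to 70527858, caspase-like activity) was at 81.9, 85.97, 78.95 and 62.2 CPM in FC1 to FC4, 118, 125, 58.5 and 79.02 in FR1, FR2, FR4 and FR5, 80.6, 78.8, 83.5 and 59.1 in MC1 to MC4 and 85.5, 128, 89.4 and 78.6 in MR1 to MR4. The libraries FR1, FR2 and MR2 stood above every other, MR1 and MR3 were close to the vehicle libraries of batch 1, and the diets overlapped. Psmb6 rose with rapamycin by a log2 fold change of 0.37 ± 0.092 (SE) (adjusted p = 0.0208). This call held in 14 of the 16 fits that left out 1 library. Psmb3, a non-catalytic beta subunit, was at 67.3, 64.5, 49.02 and 34.8 CPM in FC1 to FC4, 90.5, 87.4, 35.9 and 57.1 in FR1, FR2, FR4 and FR5, 61.3, 62.6, 60.99 and 42.2 in MC1 to MC4 and 66.2, 98.00, 59.3 and 50.7 in MR1 to MR4. MR2, FR1 and FR2 were the highest, and FC4 and FR4 the lowest. Psmb3 rose by 0.37 ± 0.12 (SE) on the log2 scale (adjusted p = 0.0424) and passed in 3 of those 16 fits.

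The other catalytic subunits of the standard proteasome did not pass. Psmb5 (chromosome 14, 54614120 to 54617995, chymotrypsin-like activity and the target of proteasome inhibitor drugs) was at 90.3, 89.3, 83.2 and 56.4 CPM in FC1 to FC4, 109.7, 111, 48.01 and 80.5 in FR1, FR2, FR4 and FR5, 79.97, 94.03, 91.8 and 61.5 in MC1 to MC4 and 82.4, 105, 89.7 and 71.1 in MR1 to MR4. Highest again were FR1, FR2 and MR2, while FR4 was the lowest of all. Its log2 fold change was 0.17 ± 0.095 (SE) (adjusted p = 0.226). Psmb7 (chromosome 2, 38588036 to 38644087, trypsin-like activity) was at 80.8, 76.7, 80.5 and 40.3 CPM in FC1 to FC4, 78.5, 76.9, 40.1 and 63.2 in FR1, FR2, FR4 and FR5, 67.5, 78.3, 77.2 and 55.9 in MC1 to MC4 and 68.2, 78.7, 70.05 and 62.8 in MR1 to MR4. Here FC4 and FR4 stood low at about the same level, no rapamycin library stood above the vehicle range, and the log2 fold change was 0.029 ± 0.098 (SE) (adjusted p = 0.873). Of the remaining beta ring genes Psmb1, Psmb2 and Psmb4, the log2 fold changes were 0.25, 0.29 and 0.27, with adjusted p values of 0.142, 0.0765 and 0.08699.

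Psmb10 encodes the interferon-inducible catalytic subunit that takes the place of Psmb7 in immunoproteasomes. It was at 44.8, 48.8, 33.5 and 33.7 CPM in FC1 to FC4, 70.4, 68.4, 32.4 and 43.4 in FR1, FR2, FR4 and FR5, 46.6, 48.7, 36.4 and 34.1 in MC1 to MC4 and 43.6, 63.2, 47.1 and 40.8 in MR1 to MR4. FR1, FR2 and MR2 were highest. FC3, FC4, FR4 and MC4 were lowest at nearly equal levels, and the diets overlapped. Psmb10 rose by 0.36 ± 0.12 (SE) on the log2 scale (adjusted p = 0.0451), a call that held in 3 of the 16 fits that left out 1 library.

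**Figure D2:**
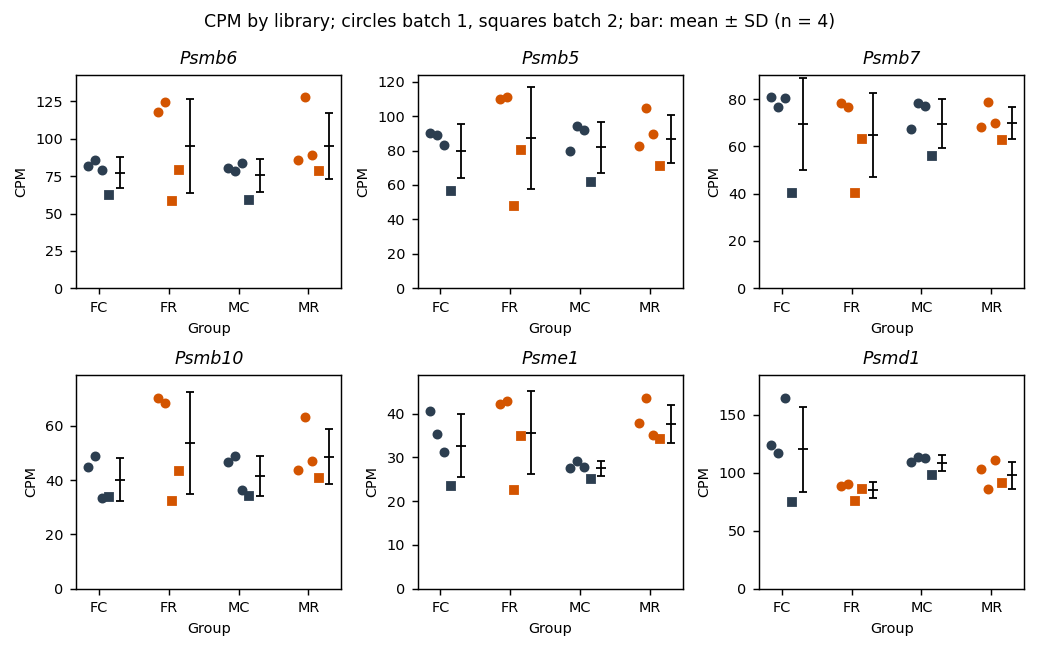
CPM of 6 genes in each library by group (FC and MC vehicle in dark blue, FR and MR rapamycin in orange), with circles for batch 1, squares for batch 2 and a bar for the mean ± SD of 4 libraries. Psmb6, Psmb5 and Psmb10 were highest in FR1, FR2 and MR2, and Psmd1 was highest in FC3.

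The 7 alpha ring genes were all above 0, with a median log2 fold change of 0.20 and a range from 0.12 (Psma5) to 0.27 (Psma7). Psma7 was at 75.6, 78.5, 71.7 and 56.3 CPM in FC1 to FC4, 102, 106, 56.5 and 74.6 in FR1, FR2, FR4 and FR5, 77.1, 80.7, 79.1 and 55.2 in MC1 to MC4 and 75.7, 106, 79.7 and 64.7 in MR1 to MR4. It rose by 0.27 ± 0.082 (SE) on the log2 scale (adjusted p = 0.0404) and passed in 3 of the 16 fits that left out 1 library. Above all other libraries again stood FR1, FR2 and MR2. Psma3 was at 92.4, 84.7, 98.8 and 63.5 CPM in FC1 to FC4, 111, 114, 66.3 and 87.5 in FR1, FR2, FR4 and FR5, 83.3, 80.4, 82.1 and 65.98 in MC1 to MC4 and 84.2, 121, 89.9 and 82.2 in MR1 to MR4. It rose by 0.27 ± 0.083 (SE) on the log2 scale (adjusted p = 0.0425), with MR2 highest and FC4 lowest, and passed in 4 of those fits.

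The base ATPases showed the same direction in 6 of 6 genes, with a median of 0.17 on the log2 scale, and 1 passed as higher. Psmc5 was at 161, 167, 165 and 127 CPM in FC1 to FC4, 214, 218, 133 and 162 in FR1, FR2, FR4 and FR5, 163, 172, 159.6 and 133 in MC1 to MC4 and 161, 213, 171 and 165 in MR1 to MR4. The libraries FR1, FR2 and MR2 lay above all others, and Psmc5 rose by 0.25 ± 0.075 (SE) on the log2 scale (adjusted p = 0.0388), a call that held in 3 of the 16 fits that left out 1 library. The base subunits that are not ATPases did not move together. Psmd4, which binds ubiquitin chains, was at 97.2, 97.6, 102 and 74.6 CPM in FC1 to FC4, 134, 134, 75.2 and 88.02 in FR1, FR2, FR4 and FR5, 96.9, 98.8, 103 and 81.9 in MC1 to MC4 and 103, 139, 105 and 88.6 in MR1 to MR4, with FR1, FR2 and MR2 above the rest, and rose by 0.25 ± 0.077 (SE) (adjusted p = 0.04400), passing in 4 of those fits. Psmd1 and Psmd2, the large scaffolds of the base, were, with Psme4, the 3 genes of lowest log2 fold change among the 42. Psmd1 (chromosome 1, 86064387 to 86139151) was at 124, 117, 165 and 75.1 CPM in FC1 to FC4, 88.3, 90.4, 75.7 and 85.8 in FR1, FR2, FR4 and FR5, 109, 114, 113 and 98.03 in MC1 to MC4 and 103, 85.6, 111 and 91.2 in MR1 to MR4. FC3 stood above all other libraries, FC4 was the lowest, and the log2 fold change was -0.27 ± 0.10 (SE) (adjusted p = 0.0868). Psmd1 passed as lower in 1 of the 16 fits that left out 1 library, that without FC4 (log2 fold change -0.34, adjusted p = 0.0438). Psmd2 was at 275, 261, 284 and 198 CPM in FC1 to FC4, 233, 238, 181 and 225 in FR1, FR2, FR4 and FR5, 243, 255, 269 and 229 in MC1 to MC4 and 239, 250.4, 257 and 236 in MR1 to MR4. All 5 rapamycin libraries of batch 1 lay below the vehicle mean of that batch, 265 CPM, and its log2 fold change was -0.083 ± 0.068 (SE) (adjusted p = 0.439).

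The 8 lid genes were all above 0, but the median was 0.10 on the log2 scale and 0 passed. They ranged from 0.029 for Psmd11 to 0.16 for Psmd3, which had the lowest adjusted p of the lid (0.128). Psmd14, the deubiquitinase of the lid, had a log2 fold change of 0.12 ± 0.088 (SE) (adjusted p = 0.363). Of the chaperones that assemble the base, Psmd9 (chromosome 5, 123169413 to 123250131) was at 28.05, 28.2, 25.6 and 23.2 CPM in FC1 to FC4, 36.02, 36.4, 21.02 and 29.6 in FR1, FR2, FR4 and FR5, 27.3, 27.6, 28.1 and 20.7 in MC1 to MC4 and 29.9, 40.02, 30.2 and 29.3 in MR1 to MR4. MR2 was highest, MC4 and FR4 lowest, and Psmd9 rose by 0.31 ± 0.085 (SE) on the log2 scale (adjusted p = 0.0252), a call that held in 12 of the 16 fits that left out 1 library. Psmd9 shares 25.5% of its counted exon bases with Gm26745, and read pairs on shared bases were left out of both. Psmd5 and Psmd10 had log2 fold changes of -0.020 and 0.16 and did not pass.

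Of the 5 caps and inhibitors, 1 passed: Psme1, which with Psme2 forms the interferon-inducible cap (PA28 alpha and beta). Psme1 (chromosome 14, 55578123 to 55581529) was at 40.6, 35.3, 31.3 and 23.4 CPM in FC1 to FC4, 42.3, 42.8, 22.6 and 34.9 in FR1, FR2, FR4 and FR5, 27.6, 29.2, 27.8 and 25.2 in MC1 to MC4 and 37.8, 43.6, 35.1 and 34.1 in MR1 to MR4. All 4 MR libraries lay above all 4 MC libraries, whereas FC and FR overlapped. In the fit of both sexes Psme1 rose by 0.34 ± 0.10 (SE) on the log2 scale (adjusted p = 0.0348). That call held in 6 of the 16 fits that left out 1 library. Psme2 was at 24.7, 22.96, 21.1 and 14.2 CPM in FC1 to FC4, 26.1, 25.99, 16.2 and 21.7 in FR1, FR2, FR4 and FR5, 20.9, 20.3, 17.99 and 15.5 in MC1 to MC4 and 26.4, 21.8, 22.1 and 18.7 in MR1 to MR4, and MR1 rather than MR2 was the highest of the male libraries. Its log2 fold change was 0.25 ± 0.082 (SE) and did not pass (adjusted p = 0.0551).

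Psme3, the nuclear activator, was the steadiest of the caps at 109, 102, 115 and 96.4 CPM in FC1 to FC4, 92.2, 105, 89.1 and 108 in FR1, FR2, FR4 and FR5, 105, 105, 105 and 100.3 in MC1 to MC4 and 109.6, 112, 114 and 103 in MR1 to MR4. All groups overlapped, and the log2 fold change was 0.0031 ± 0.062 (SE) (adjusted p = 0.981). Psme4, whose product helps to degrade acetylated histones, was at 38.01, 44.2, 47.8 and 52.1 CPM in FC1 to FC4, 40.8, 49.98, 63.1 and 43.1 in FR1, FR2, FR4 and FR5, 50.6, 42.5, 44.2 and 62.5 in MC1 to MC4 and 32.8, 45.5, 44.4 and 40.3 in MR1 to MR4. FR4 and MC4, the libraries near the bottom for most subunits, were the highest for Psme4, and its log2 fold change was -0.12 ± 0.11 (SE) (adjusted p = 0.488). Psmf1, an inhibitor of the core particle in vitro, was at 43.8, 40.1, 38.5 and 32.04 CPM in FC1 to FC4, 42.95, 45.95, 28.7 and 30.1 in FR1, FR2, FR4 and FR5, 37.4, 38.4, 33.9 and 33.8 in MC1 to MC4 and 35.1, 48.2, 36.1 and 32.8 in MR1 to MR4, with MR2 highest, FR4 lowest and a log2 fold change of 0.043 ± 0.081 (SE) (adjusted p = 0.759).

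The 2 genes that are not canonical subunits were at low counts. Psmc3ip was at 2.296, 1.98, 1.41 and 1.08 CPM in FC1 to FC4, 1.89, 4.08, 0.8297 and 2.26 in FR1, FR2, FR4 and FR5, 1.49, 2.202, 1.73 and 1.29 in MC1 to MC4 and 2.63, 2.61, 2.17 and 1.802 in MR1 to MR4. FR2 stood above all others, and its log2 fold change, the highest of the 42, had a wide error at 0.51 ± 0.22 (SE) (adjusted p = 0.126). Psme2b was at 0.4397, 1.07, 0.381 and 0.301 CPM in FC1 to FC4, 0.816, 0.489, 0.885 and 0.463 in FR1, FR2, FR4 and FR5, 0.773, 0.4504, 0.519 and 0.112 in MC1 to MC4 and 0.515, 0.415, 0.241 and 0.257 in MR1 to MR4, with a log2 fold change of 0.12 ± 0.36 (SE) (adjusted p = 0.856). Read pairs that match several places were not counted, so those of near-identical copies such as Psme2 and Psme2b, and of Psmb5, Psmb6 and Psmb7 with their pseudogenes, can be undercounted.

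Genes that build the proteasome or supply ubiquitin were tested from lists of related genes. The 6 genes listed for 20S assembly were the chaperones Psmg1 to Psmg4 and Pomp, and Akirin2, which brings the particle into the nucleus. All had log2 fold changes above 0, with a median of 0.24, and Pomp passed as higher at 0.31 ± 0.092 (SE) (adjusted p = 0.0348). Of 4 ubiquitin genes and activating enzymes, 1 passed as higher and 1 as lower. Rps27a, which encodes ubiquitin fused to a ribosomal protein, rose by 0.39 ± 0.11 (SE) (adjusted p = 0.0298). Uba1, the main ubiquitin-activating enzyme, fell, with a log2 fold change of -0.24 ± 0.064 (SE) (adjusted p = 0.0248). It was at 418 ± 21.7 CPM in vehicle and 355 ± 33.4 CPM in rapamycin libraries (SD, n = 8 each). The counted exon lengths of Pomp, Rps27a and Uba1 were 5216, 1972 and 4819 bases. With the exon length slope as a covariate 0 of all genes tested passed, so none of these did. How their calls depend on single libraries was not examined. The ubiquitin gene Ubb, which encodes a chain of ubiquitin alone, and Uba6, a second activating enzyme, had log2 fold changes of 0.23 and -0.27 and did not pass. Among 7 subunits under other names and bound factors, 4 were above 0 and 0 passed. These included the ubiquitin receptor Adrm1 at 0.25 and the lid subunit Shfm1 at 0.30, both above 0, and the bound factors Usp14 at -0.20 and Ube3c at -0.23.

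**Figure D3:**
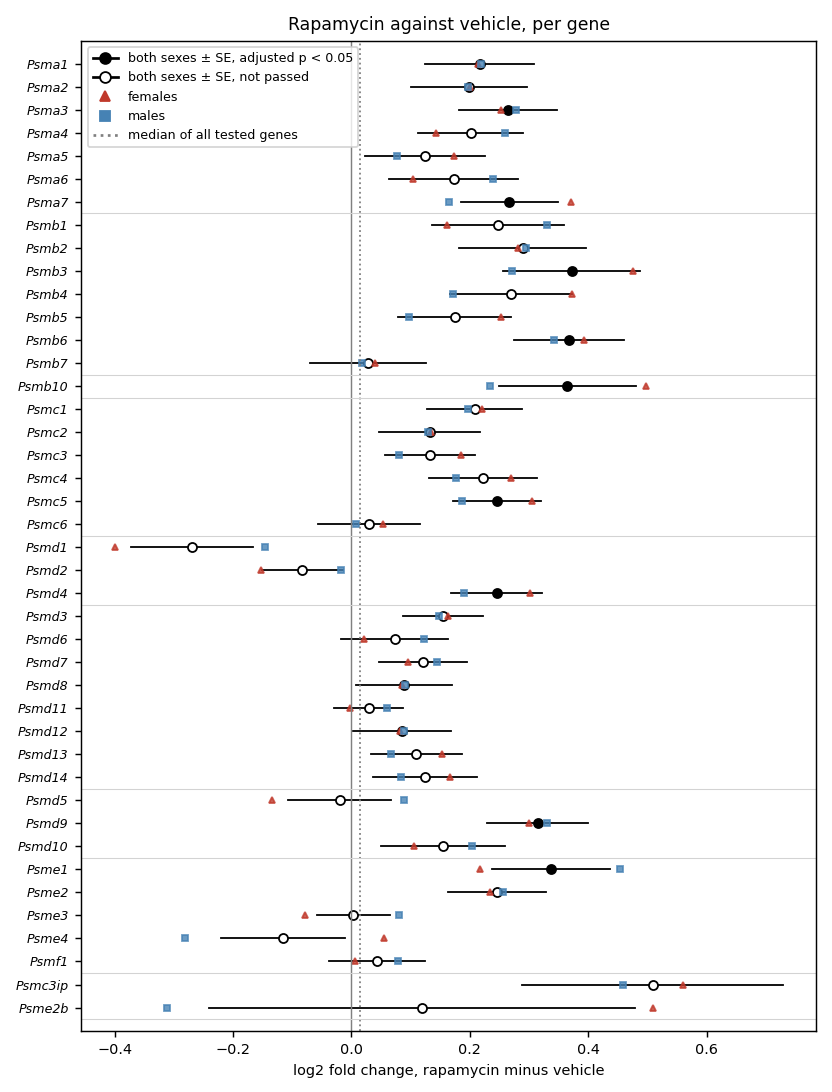
log2 fold change of rapamycin against vehicle for each of the 42 genes, with circles and bars for both sexes ± SE (filled where the adjusted p was under 0.05), triangles for females and squares for males. The 9 filled circles lie between 0.25 and 0.37, and Psmd1, Psmd2, Psmd5 and Psme4 lie below 0.

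The sexes were also fitted as separate contrasts, with the 4 groups and batch as terms. In females 0 of 42 genes passed, as did 0.0121% of all genes tested. The median log2 fold change was 0.17, with 37 genes above 0 (52.1% of all genes) and 9 at an unadjusted p under 0.05 (23.1% of all genes), and DESeq2 called 2 of the 42 (8.98% of all genes). In males 0 of 42 passed (0% of all genes), the median was 0.16, 38 genes were above 0 (51.3% of all genes) and 5 had an unadjusted p under 0.05 (12% of all genes), and DESeq2 called 0 (0.109% of all genes). Without MR4, whose counts went against its label, the male median was 0.10 and 1 gene had an unadjusted p under 0.05. Psmd1 had a log2 fold change of -0.40 ± 0.15 (SE) in females and -0.15 ± 0.14 (SE) in males. Psme4 was at 0.054 ± 0.14 (SE) in females and -0.28 ± 0.14 (SE) in males, and Psme1 at 0.22 ± 0.14 (SE) and 0.45 ± 0.14 (SE). None of these differences passed the interaction test of sex and treatment: 0 of 42 genes did (0% of all genes), the lowest adjusted p was 0.999, and 0 had an unadjusted p under 0.05 (2.17% of all genes). For the 40 subunit genes the interaction, female minus male, lay between -0.25 ± 0.20 (SE) for Psmd1 and 0.33 ± 0.20 (SE) for Psme4, so that sex differences in response of that size could not be told from the spread.

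Female and male cortex did not differ detectably in any of the 42 genes over both diets. Of the 42, 0 passed (0.0302% of all genes did), 32 were above 0, that is higher in females (50.7% of all genes), and 1 had an unadjusted p under 0.05 (5.99% of all genes). DESeq2 called 0. The 2 genes of smallest p were Psma4, an alpha ring gene, and Psme2b. Psma4 was at 74.4, 70.3, 74.9 and 50.4 CPM in FC1 to FC4, 89.3, 86.5, 47.5 and 55.6 in FR1, FR2, FR4 and FR5, 56.4, 59.1, 58.2 and 47.8 in MC1 to MC4 and 58.1, 87.1, 63.1 and 56.7 in MR1 to MR4. FC1 to FC3 lay above all MC libraries, FC4 did not, and the difference, female minus male, was 0.21 ± 0.088 (SE) on the log2 scale (adjusted p = 0.8103). That of Psme2b was 0.66 ± 0.36 (SE) (adjusted p = 0.833). Without MR4 the median difference was 0.063 in place of 0.034, with 0 genes passed.

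Of the comparisons run, that of the batches called the most proteasome genes. Of the 42 genes, 37 passed as lower in batch 2 and 0 as higher, against 16.5% and 19.1% of all genes, with 35.5% passed in either direction. The median log2 difference was -0.46, or -27.1%, against 0.015 for all genes. The summed level was 3247 to 4161 CPM in the 11 libraries of batch 1 and 2374 to 3167 CPM in the 5 of batch 2, and the ranges did not overlap. All 7 alpha ring genes, 7 beta ring genes, 6 base ATPases, 3 other base subunits and 3 assembly chaperones fell. Psmb3 fell the most, with a log2 difference of -0.71 ± 0.13 (SE) (adjusted p = 6.26e-04), and 3 genes, Psmb3, Psma2 and Psmc3ip, passed with a fold change of at least 1.5 (12.9% of all genes did). The lid was less uniform, with 6 of 8 passed: Psmd3 at -0.049 (adjusted p = 0.6401) and Psmd11 at -0.13 (adjusted p = 0.115) did not pass. Psme3 had a log2 difference of -0.097 (adjusted p = 0.281), and Psme4 was the only one of the 42 above 0 (51.6% of all genes), at 0.26 (adjusted p = 0.0783). Each batch held both diets, and the treatment median within batches was 0.18 on the log2 scale in batch 1 (33 of 42 above 0, and 3 passed, where 7.45% of all genes did) and 0.25 in batch 2 (40 of 42 above 0), where groups of 1 or 2 libraries gave a value only.

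**Figure D4:**
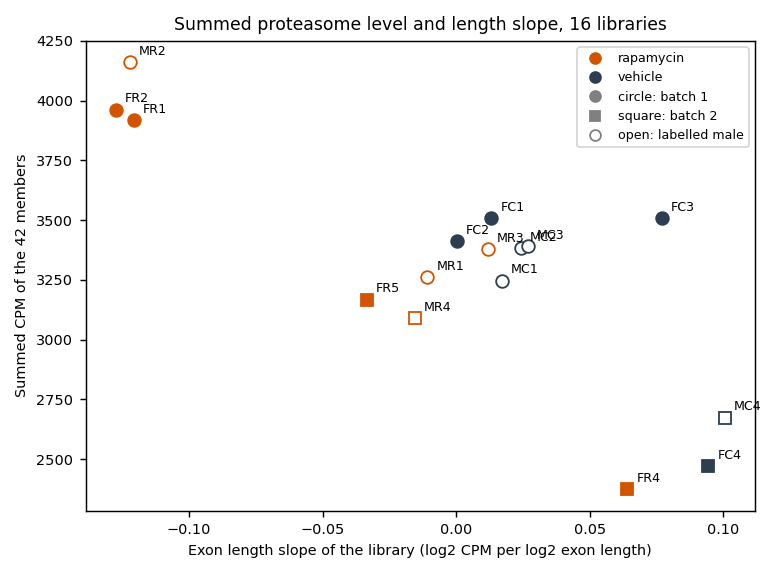
Summed CPM of the 42 genes (y) against the exon length slope (x) of each of 16 libraries, coloured by diet, with circles for batch 1, squares for batch 2 and open symbols for libraries labelled male. FR1, FR2 and MR2 have the lowest slopes and the highest sums. FR4, FC4 and MC4 combine the lowest sums with high slopes, and FC3 has a high slope with a sum of 3507 CPM.

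The 3 libraries with the highest proteasome sums, FR1, FR2 and MR2, had relatively more reads on short genes. This was measured by the exon length slope: each gene's departure from its average log2 CPM was regressed on its log2 exon length within a library, over all genes tested, and a low slope means relatively more reads on short genes. FR1, FR2 and MR2 had slopes of -0.121, -0.127 and -0.122, where the other libraries ranged from -0.033 (FR5) to 0.1005 (MC4). Outside these 3 the order was not kept over both batches: FC3 had a slope of 0.077, the third highest, with a sum of 3507 CPM, and FR5 the fourth lowest slope with 3167 CPM. Within batch 2, FR5 and MR4 had the lowest slopes (-0.033 and -0.015) and the highest sums (3167 and 3091 CPM). FR4, FC4 and MC4 had slopes of 0.064, 0.094 and 0.1005 with sums of 2374, 2471 and 2674 CPM, which rose with the slope. The slope differed by -0.0978, rapamycin minus vehicle (two-sided exact permutation test of diet within batches over 4620 assignments, p = 8.66e-04). This difference was known from earlier results of these data when the test was chosen, so the p values for the slope are not independent support. The same 3 libraries had the highest mitochondrial shares of counts, 6.88% to 6.99%, where the other 13 libraries had at most 5.47%. Proteasome genes are short: their median counted exon length was 2313 bases against 3766 for all genes tested. The 4228 tested genes no longer than 2313 bases had a median treatment log2 fold change of 0.20, with 15.2% passed as higher, and the 12325 longer genes had a median of -0.033. The 42 proteasome genes, with a median of 0.16, include genes longer than 2313 bases, so these medians are not of genes of like length. With the slope as a covariate 0 of the 42 passed, as did 0 of all genes. The proteasome median was then -0.072, against 0.0078 for all genes. Offsets that remove the length trend within each library left 1 passed gene of 42, where 5.69% of all genes passed, and a median of 0.10, against 0.036 for all genes. The slope itself differed between the diets, and its part in the treatment difference was not tested further.

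**Figure D5:**
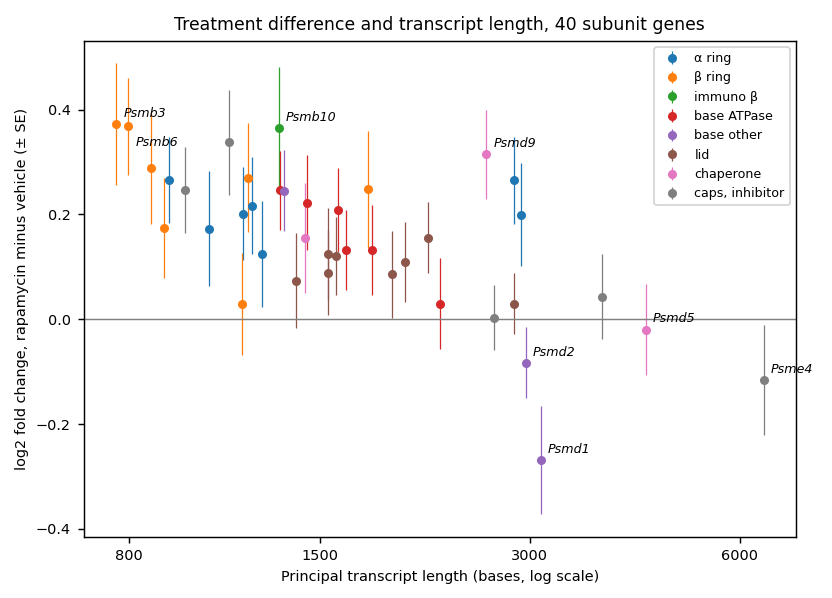
Treatment log2 fold change (y, ± SE) of 40 subunit genes against the length of the principal transcript in bases (x, log axis), coloured by role. The 14 shortest genes had a median of 0.26 and the 13 longest a median of 0.030, and Psmd1, Psmd2, Psmd5 and Psme4 are among the longest.

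The same order was seen within the set. Across the 40 subunit genes (without Psmc3ip and Psme2b), Pearson's r between the treatment log2 fold change and the log2 length of the principal transcript was -0.67 (Spearman's rho -0.64), and with the counted exon length it was -0.52. These genes share the same 16 libraries and are not independent, so r is a description. The 14 genes with transcripts of 766 to 1311 bases had a median log2 fold change of 0.26 with 14 above 0. The 13 of 1316 to 1904 bases had a median of 0.13 with 13 above 0, and the 13 of 1989 to 6491 bases a median of 0.030 with 9 above 0. For Psma2, Psmc6 and Psmb1 the principal transcripts that set these groups (2911, 2234 and 1758 bases) exceed the counted exons (944, 1564 and 1036 bases). The roles differ in length, so role and length cannot be told apart: 6 of the 7 beta ring genes (all but Psmb1) are among the 14 shortest, and Psmd1, Psmd2 and Psme4 among the longest. Psmd9 and Psma3, which passed, have principal transcripts of 2597 and 2846 bases and lay above genes of like length.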

How the data were processed

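Poly(A) RNA of cortex from 16 5xFAD mouse samples was sequenced as paired-end reads. The authors deposited whole-number counts of read pairs per gene, not normalized, for 47593 gene symbols. Per the labels and file headers they used FastQC 0.11.9, Trimmomatic 0.39, HISAT2 2.2.1 on mm10 (GRCm38) and featureCounts 2.0.3 on exons, without strand, and pairs that map to several places or overlap several genes were not counted. Alignment and counting were not repeated here.

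Groups, sex and batch came from the labels. Counts were scaled by TMM factors and tested in R 4.3.3 with edgeR 4.0.16 (quasi-likelihood test). The filterByExpr filter, set to 10 counts, kept 16553 genes holding 99.9% of the counts. The terms were sex, batch and treatment, or, for the sexes apart and their interaction, group and batch. Adjusted p values are Benjamini-Hochberg values over all genes tested, passed means under 0.05, and a fold change threshold of 1.5 was also applied. The library length slope was compared with an exact permutation test of diet within batch. DESeq2 1.42.0, other scalings, filters and covariates, and leaving out libraries were the alternatives. Omission of FR1, FR2 and MR2 together was chosen after seeing the data. The tests were tried on simulated counts. Exon lengths and overlaps were from GENCODE M21 and the count table, and promoters from RefSeq. Figures used Python 3.11.15 and matplotlib 3.10.9.

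The genes, role lists, pathway lists and tests were chosen with earlier results of these data known, and some genes of the ubiquitin list are not reported here. Values in every library are given for Psmb5, Psmb6, Psmb7, Psmb10, Psme1 to Psme4 and Psmf1, the 3 highest and 3 lowest treatment log2 fold changes, and the 2 smallest p values between the sexes, to which the other genes that passed with rapamycin were added after their values were seen. Replicate numbers were not treated as pairing the samples in the reported fits. Of 15 pairs of libraries that share a number from 1 to 3, the deviations of 7 correlated above 0.1. Pairs of unlike number were not compared with them, so these values cannot decide whether the numbers pair the samples.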

Additional observations from a re-analysis of the deposited data

Results flagged for a closer look

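Within each group of 4 libraries, a value was picked out where its gap to the nearest other value was a larger share of the group's range than Dixon's limit for 4 values allows, for the 15 genes of the naming rule and the summed level of the 42 genes. Of 64 group values examined, 4 were picked out, where chance gives about 1 in 20. All 4 are low values in batch 2 libraries, each the only library of its group in that batch. The summed level was 2471 CPM in FC4 against 3411 to 3509 CPM in FC1 to FC3. Psmb7 was at 40.3 CPM in FC4, against 76.7 to 80.8 CPM in the other FC libraries. Psmb3 was at 42.2 CPM in MC4 against 61.0 to 62.6 CPM in MC1 to MC3, and Psme3 at 100.3 CPM in MC4 against 104.5 to 105.3 CPM.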

How the results depend on the processing

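The median treatment log2 fold change of the 42 genes in both sexes stayed above 0 under every alternative run except the slope covariate, where it was -0.072. With the mitochondrial share as covariate the median was only 0.028, against 0.013 for all genes, and 25 of the 42 were above 0. The count of 9 passed genes depended on the setting. It was 8 with DESeq2 size factors (13.5% of all genes), 10 with DESeq2 (18.6%) and 8 with no count filter (8.68%). The count over all genes (13.3% in the reported fit) fell as well under these settings: 0 of the 42 (0.858% of all genes) without the batch term, 0 (0 of all genes) with either covariate (exon length slope, mitochondrial share), 1 (5.69%) with length offsets, 3 (7.45%) in batch 1 alone, 2 (6.22%) without MC4 and MR4, and 0 (0.0058%) without FR1, FR2 and MR2. With the slope covariate the log2 fold changes of 7 of the 9 turned negative: Psma7 -0.0597, Psmd4 -0.011, Psmd9 -0.000335, Psmb10 -0.12, Psmb6 -0.019, Psmb3 -0.17 and Psmc5 -0.015. Leaving out 1 library at a time gave 0 to 19 passed genes, where 4.26% to 20% of all genes passed. The count was 0 without FR1 or FR2, 1 without MR2 and 2 without FR5, MC1, MC2, MC3 or MR4. It was 3 without FC1, FC2, FC3, FC4 (1 of them, Psmd1, as lower) or MC4. Without MR1, MR3 and FR4 it was 11 (15.4% of all genes), 12 (17.3%) and 19 (20%). With the replicate number as a block in place of batch, 1 gene passed in both sexes (7.84% of all genes), and 0 in females, males, the interaction and the sex comparison. The cause of these changes was not tested.

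In females, 2 genes passed with DESeq2 (8.98% of all genes), 2 with no count filter (5.55%) and 3, 1 of them as lower, in batch 1 alone (7.75%). Leaving out 1 library gave 0 to 9 in females, with 9 without FR4 (12.6% of all genes) and 1 without FC4 (1.39%). With the slope covariate the female median was -0.16 and the male median -0.062. In the batch comparison, 11 genes passed with the slope covariate (12.6% of all genes, median -0.25) and 10 with the mitochondrial share (10.3%, median -0.30). With 1 library left out, 32 to 38 passed, where 25.4% to 36.8% of all genes did. The length slope differed between the diets by -0.100 in batch 1 (exact permutation p = 0.00433) and -0.0923 in batch 2, where 10 assignments allow no p below 0.1 and p was 0.2. Genes of few counts, Psme2b and Psmc3ip, had errors too wide to show differences of the size seen in the subunits.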

Other observations

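Regulators and substrate delivery genes of the proteasome did not pass. Among 7 genes of the Nfe2l1 pathway, 0 passed in either direction between the diets and the median log2 fold change was 0.041. Nfe2l1 itself was at 431 ± 20.95 CPM with vehicle and 386 ± 43.0 CPM with rapamycin (SD, 8 libraries each), a log2 fold change of -0.15 ± 0.064 (SE) (adjusted p = 0.134, edgeR). Ddi2, the protease that activates it, had a log2 fold change of -0.19 ± 0.093 (SE) (adjusted p = 0.182). In the batch comparison, where 37 of the 42 proteasome genes were lower, 0 of these 7 were lower and 3 were higher (Ddi2, Mafg and Hsf1, at log2 differences of 0.27, 0.46 and 0.41).

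Of 9 substrate shuttles and segregase genes, 0 passed between the diets, with a median log2 fold change of -0.052 and 2 above 0. Those 2 were Ufd1l at 0.13 and Sqstm1 at 0.16, the latter the autophagy receptor p62 (495 ± 52.3 CPM with vehicle and 539 ± 110.1 CPM with rapamycin). Ubqln1, which carries ubiquitinated proteins to the proteasome, was lowest at -0.19 ± 0.069 (SE) (adjusted p = 0.0735). Vcp, the segregase that extracts proteins for degradation, was at -0.055 (adjusted p = 0.621). Across all 33 genes of these lists and those of assembly, ubiquitin supply and bound factors, 2 passed as higher and 1 as lower between the diets, against 6.46% and 6.86% of all genes tested.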
